A study of Rattus norvegicus with 24 samples.

Results

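The RNA of the nucleus accumbens (NAc) was compared between F1 pups exposed to oxycodone (oxy) in utero (IUO) and F1 saline controls (SAL). All pups were Sprague Dawley rats at postnatal day (P) 14, and each group had 4 pups, so the comparison used 8 of the 24 libraries of the series. The F0 dams of the IUO pups were gavaged with oxy at 10 mg/kg/day for 5 days, and the dose was then raised by 0.5 mg/kg/day over 10 days to 15 mg/kg/day. Dosing went on through mating, gestation and nursing, so IUO pups met oxy before birth and in milk, while SAL pups came from saline dams. Neither group of pups was dosed directly. Both sexes could be sampled, and no label says which pup was male or female. The deposited values are FPKM, in which the fragments of a gene are scaled for transcript length and for the library total. Of 23950 genes listed in each file, 13772 reached an FPKM of 1 in no fewer than 4 libraries of these 8. Leaving aside 3 Y-linked genes, 13769 were tested, of which 12067 are protein-coding.

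The NAc is the ventral part of the striatum and a node of the reward circuit. Most of its neurons are GABAergic projection neurons, which fall into a direct pathway that carries the dopamine receptor D1 and an indirect pathway that carries D2. Opioids such as oxy act on G protein-coupled opioid receptors, which lower cAMP in the cells that carry them. Orexin (Hcrt) and melanin-concentrating hormone (Pmch) are peptides of lateral hypothalamic neurons, and oxytocin (Oxt) and vasopressin (Avp) are peptides of magnocellular hypothalamic neurons. Their axons and receptors reach the NAc, but the cell bodies lie outside it.

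The 200 bases before the start of Hcrt, Oxt and Avp are shown here because these genes had ratios of mean FPKM, IUO over SAL, of 18.0, 2.95 and 3.32. They are RefSeq sequences of build GRCr8, written 5′ to 3′ on the strand of the gene. Capitals mark every match, on either strand, to CACGTG (an E-box), GGTCA (part of a nuclear receptor site), TGACG (part of a cAMP response site) and TATAAA.
Hcrt, chr10:86191525-86191724, minus strand: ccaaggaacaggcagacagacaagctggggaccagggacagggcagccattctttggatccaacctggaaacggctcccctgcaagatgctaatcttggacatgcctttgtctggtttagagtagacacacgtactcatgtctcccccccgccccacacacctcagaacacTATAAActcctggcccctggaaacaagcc
Oxt, chr3:138235554-138235753, plus strand: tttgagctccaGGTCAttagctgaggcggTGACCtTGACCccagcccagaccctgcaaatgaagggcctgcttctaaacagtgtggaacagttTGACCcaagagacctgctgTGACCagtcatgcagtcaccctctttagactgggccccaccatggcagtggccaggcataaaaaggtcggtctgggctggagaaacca
Avp, chr3:138248523-138248722, minus strand: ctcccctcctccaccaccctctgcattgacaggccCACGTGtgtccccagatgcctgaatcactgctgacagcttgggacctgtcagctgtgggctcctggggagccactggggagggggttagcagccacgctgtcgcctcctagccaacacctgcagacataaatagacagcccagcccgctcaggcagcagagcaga
Oxt and Avp are neighbours on opposite strands, with starts 12768 bases apart in that build. Of 33469 rat windows of the same length, 29.7% held GGTCA or its reverse complement, 15.9% TGACG, 10.4% TATAAA and 4.68% CACGTG. The Oxt window held 5 matches, all to GGTCA or TGACC, while the Hcrt window held 1 TATAAA and the Avp window 1 CACGTG. A match is a run of letters and not a shown binding site.

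After Benjamini-Hochberg adjustment over all genes tested, 0 genes (0%) differed between IUO and SAL at an adjusted p under 0.05 by limma. Without adjustment, 481 genes had a p under 0.05, of which 290 (2.11%) were higher and 191 (1.39%) lower in IUO. A nominal rule like the one in the methods of the study, an unadjusted p under 0.05 with a 1.5-fold ratio of mean FPKM, was passed by 127 genes (0.922%) that were higher and 86 (0.625%) that were lower. This balance turned to 70 higher and 140 lower with upper-quartile rescaling, and to 81 and 156 without the 3 libraries rich in choroid plexus RNA. Of all genes tested, 54.89% had a log2 fold change above 0, which is the background for the counts of higher members of lists below. Among protein-coding genes it was passed by 72 (0.597%) and 39 (0.323%). Genes of other or no matched class passed it more often, 102 of 1702 (5.99%), and are not described further. The groups did not overlap for 138 protein-coding genes (1.14%) with IUO higher and for 123 (1.02%) with IUO lower. Everything named below is therefore a nominal difference.

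Libraries differed in tissue content and in the Y-linked genes, and these differences touched the groups unequally. Summed Y-linked FPKM was 27.3 to 36.1 in the SAL libraries and 37.3 in IUO library 2, but 0.15 to 6.72 in the other 3 IUO libraries. Y-linked genes are expressed in males, so these levels track the sex of the pups, and with all 4 SAL libraries high and 3 IUO libraries low, sex and treatment cannot be told apart for any difference below. With that level as a covariate, 75 genes passed the nominal rule instead of 213. Only IUO library 2 reached the SAL level, so this covariate largely follows the groups and leaves their difference less certain. Whether sex accounts for the drop was not tested. Choroid plexus RNA, marked by transthyretin (Ttr), stood out in IUO libraries 3 and 4 and SAL library 1, with 8011, 973 and 5121 FPKM of Ttr against 1.75 to 22.8 in the other 5. Genes of cortical excitatory neurons were low in SAL libraries 2 and 3. Thalamus and habenula genes were high in IUO libraries 3 and 4 and SAL libraries 1 and 2. The total FPKM ran from 535866 to 636367, and IUO libraries 1 and 4 listed 7176 and 6941 genes at 0 against 4848 to 5697 in the other 6. In bulk tissue, fewer cells of a type and less RNA per cell cannot be told apart. Beyond the covariate values given below, the part of these differences in the results was not tested. Rescaling each library to its upper quartile moved the median log2 fold change of all genes from 0.02 to -0.10, so small shifts of lists depend on the scaling.

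The 12 higher and 12 lower protein-coding genes of smallest p that passed the nominal rule without overlap of the groups came first by the naming rule. Their groups were chosen for not overlapping, so the values are a description. Each had an adjusted p of 0.999 by limma.

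The highest-ranked gene was Lrrc58, a leucine-rich repeat protein, at 13.7, 11.6, 13.9 and 12.01 FPKM in the 4 IUO libraries and 9.30, 8.24, 8.25 and 7.49 in SAL. This was a log2 fold change of 0.62 (standard error 0.117) and a 1.54-fold ratio of means. The 4 F1 PNO libraries, from pups whose dams had oxy only after giving birth, spanned 5.15 to 7.12, which is under every IUO and every SAL value. Kctd20, a BTB domain protein, was at 8.17, 9.03, 8.27 and 8.37 FPKM in IUO and 5.26, 6.05, 4.09 and 5.13 in SAL. The log2 difference was 0.72 (standard error 0.139), and the 4 IUO values lay close together.

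Shc3, a neuronal adaptor that couples receptor tyrosine kinases to Ras, stood at 20.7, 22.7, 26.4 and 26.4 FPKM in IUO and at 14.9, 12.2, 13.01 and 19.4 in SAL. The 4 IUO values were the higher ones by 0.70 on the log2 scale (standard error 0.161), and F1 PNO spanned 8.71 to 13.1 FPKM. Sos2, a nucleotide exchange factor for Ras, had a ratio of 2.0, but its IUO libraries ran from 3.81 to 10.6 FPKM against 3.28 to 3.74 in SAL. The gap between the groups was thus narrow for Sos2 and the IUO spread wide. Nrp1, a co-receptor for semaphorins and VEGF, was at 3.24 to 4.35 FPKM in IUO and 2.13 to 3.12 in SAL. Its paralog Nrp2 was lower instead, at 4.65, 4.49, 7.33 and 6.35 FPKM in IUO and 9.15, 10.9, 6.35 and 9.56 in SAL, with a log2 fold change of -0.65. The groups overlapped for Nrp2 at IUO library 3 and SAL library 3.

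The other higher genes covered several roles. Il17ra, the receptor of interleukin 17A, was at 6.50 to 8.04 FPKM in IUO and 3.77 to 5.57 in SAL. Ghrl, which encodes the precursor of ghrelin, was at 2.35 to 2.84 FPKM in IUO and 1.5 to 1.74 in SAL, a tight separation at a low level. Dtx4, a ubiquitin ligase of the Notch pathway, was at 8.75 to 11.3 FPKM against 5.44 to 8.22. Tshz3, a zinc finger factor of cortical projection neurons, was at 2.98 to 4.86 FPKM against 1.21 to 2.72. Its log2 fold change of 0.89 was measured beside the low cortical genes of SAL libraries 2 and 3. Zfp697 had the largest log2 fold change of these 12, 1.16 (standard error 0.280), from 2.05 to 3.94 FPKM in IUO and 0.86 to 1.56 in SAL. Mustn1 and LOC100361259 completed the higher genes, at log2 fold changes of 0.67 and 0.80.

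The lower genes were led by Atxn7l1, a paralog of ataxin-7, at 5.07, 5.19, 6.27 and 3.76 FPKM in IUO and 9.42, 10.4, 7.65 and 7.18 in SAL. That gave a log2 fold change of -0.77 (standard error 0.185). Med8, a subunit of the Mediator complex, was at 5.17 to 6.21 FPKM in IUO and 6.48 to 12.5 in SAL, so that SAL library 4 lay just above the IUO range. Rpl39, a ribosomal protein of the large subunit, was at 70.3, 73.1, 55.1 and 36.8 FPKM in IUO and 86.6, 93.8, 100.1 and 80.6 in SAL. Its log2 fold change of -0.66 came down in size to -0.17 with the Y-linked covariate. Otof, which encodes the calcium sensor otoferlin, was at 2.45 to 2.90 FPKM in IUO and at 3.65, 7.74, 3.71 and 4.27 in SAL, where library 2 stood apart. Icoslg, the ligand of the T cell costimulator ICOS, was at 1.61 to 2.84 FPKM against 3.27 to 4.27. Eya2, a transcriptional coactivator and phosphatase, was at 1.63 to 2.58 FPKM against 2.75 to 3.97. Adal, an adenosine deaminase-like enzyme, had the lowest ratio of these 12, with 2.03-fold more in SAL, at 0.52 to 1.32 FPKM in IUO. Cabp4, a calcium-binding protein of photoreceptor synapses, was also near the filter, at 0.63 to 1.22 FPKM in IUO and 1.44 to 2.22 in SAL. Tmem39a, Zfp958, Cyb561a3 and Cdc42ep2 had log2 fold changes of -0.61, -0.61, -0.70 and -0.74.

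**Figure D1:**
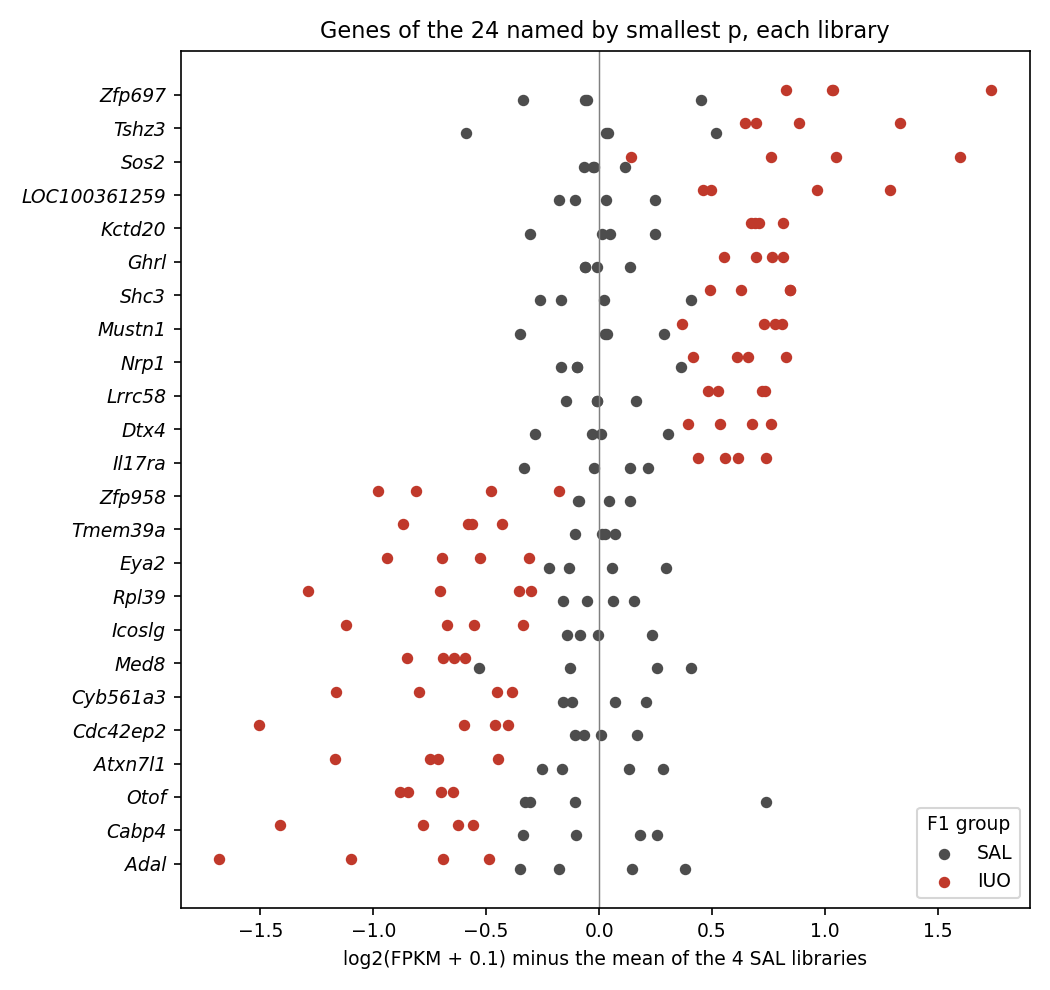
Each point is 1 library: the horizontal axis is its log2(FPKM + 0.1) minus the mean of the 4 SAL libraries, for the 24 named genes on the vertical axis, with SAL in grey and IUO in red. The 12 upper genes have all IUO points to the right of SAL and the 12 lower genes all to the left, which the choice of genes fixed, and the IUO points of Sos2 spread from 3.81 to 10.6 FPKM.

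In the Y-linked covariate fit, whose covariate largely follows the groups, 24 of these 24 genes had the same direction, and 11 had an unadjusted p under 0.05. Besides Rpl39, the log2 fold change came down by over 1.5 times for LOC100361259 (to 0.37), Zfp958 (to -0.36) and Cabp4 (to -0.49). F2 pups, the offspring of the F1 animals, share no library with F1 and were not used to choose the genes. Of the 24 genes, 14 had the same direction in F2 IUO against F2 SAL, 4 of them with an unadjusted p under 0.05. These 4 were Med8, Icoslg, Otof and Eya2, all lower in IUO, with F2 log2 fold changes of -0.52, -0.70, -0.96 and -0.94. None of the 12 higher genes had a p under 0.05 in F2. Of all 111 protein-coding genes past the nominal rule in F1, 66 had the same direction in F2, 12 with an unadjusted p under 0.05, and 1 had such a p in the opposite direction. In F2, 4.07% of protein-coding genes were higher and 4.48% lower at that p. The share of all genes tested with the same direction in F1 and F2 is not given here. The counts of same direction thus have no background and are a description.

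The peptide genes of the hypothalamus had large ratios and a wide spread between pups. Hcrt was at 0.87, 41.2, 9.28 and 41.3 FPKM in the IUO libraries and at 2.02, 0.26, 1.85 and 1.01 in SAL. IUO libraries 2, 3 and 4 exceeded every SAL library, while IUO library 1 lay within the SAL range. The ratio of means was 18.0 and the log2 fold change 3.30 (95% interval 0.79 to 5.81), with an adjusted p of 0.999 by limma, and p = 0.114 in an exact two-sided permutation test of 4 against 4. Pmch did not pass the filter on FPKM, and followed the same pups, at 0.09, 25.8, 4.59 and 22.6 FPKM in IUO and 0.18 to 0.52 in SAL (p = 0.143, exact permutation test).

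Oxt was at 23.0, 34.6, 13.4 and 42.9 FPKM in IUO and at 3.51, 8.42, 22.4 and 4.29 in SAL, where library 3 overlapped the IUO range. The log2 difference was 1.81 (95% interval 0.56 to 3.07; exact permutation p = 0.0571). Avp was at 68.2, 27.2, 14.2 and 49.4 FPKM in IUO and at 10.4, 5.8, 29.0 and 2.80 in SAL. For Avp the log2 fold change was 1.996 (95% interval 0.46 to 3.54; exact permutation p = 0.0857). IUO library 1, low in Hcrt and Pmch, had the highest Avp, so the lateral and the magnocellular peptides did not follow the same order across pups. With 4 against 4, the smallest p this test allows is 0.0286.

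Other hypothalamic genes did not share this pattern. Of 32 listed genes of the hypothalamus 17 were tested, 9 were higher in IUO, and the list had a median log2 fold change of 0.01 beside 0.02 over all genes. Members with an unadjusted p under 0.05 were Hcrt, Oxt and Avp, all higher, and Gnrh1, the precursor of gonadotropin-releasing hormone, which was lower at 0.03, 0.98, 1.01 and 0 FPKM in IUO and 0.79, 2.66, 1.23 and 1.83 in SAL. Summed FPKM of the tested members was 266.2 to 341.9 in IUO and 197.8 to 329.8 in SAL. Without Hcrt, Oxt and Avp it was 195.1 to 229.3 in IUO and 181.9 to 276.6 in SAL. The developmental regulators Rax and Nkx2-4 were listed at 0 in all 8 libraries. With the level of the list as a covariate, the log2 fold changes were 2.14 for Hcrt, 1.36 for Oxt and 1.83 for Avp. Those peptides are themselves members of the list.

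The receptors and the other genes whose RT-PCR the study described for F1 and the orexin system gave smaller differences. The list of those genes is a selected part of all genes taken to RT-PCR. Of its 8 tested members 7 were higher, and 3 had an unadjusted p under 0.05 (Hcrt, Oxt and Avp). The study chose its hits from RNA-seq that includes these samples, and added orexin system genes after the RT-PCR of Hcrt. The list is thus not independent of these samples. Of 5 tested genes of the orexin and MCH system, 3 were higher and only Hcrt had such a p. The orexin receptor Hcrtr1 was at 1.54 to 3.23 FPKM in IUO and 1.13 to 4.25 in SAL, with a log2 fold change of -0.09 (95% interval -0.98 to 0.79). Hcrtr2, below the filter, was at 0.20 to 0.59 FPKM in IUO and 0.43 to 1.01 in SAL (p = 0.0857, exact permutation test). The MCH receptor Mchr1 was at 14.6 to 17.5 FPKM in IUO and 14.8 to 21.6 in SAL. Otp, a homeodomain factor of hypothalamic neuroendocrine cells, was at 0.96 to 2.21 FPKM in IUO and 0.50 to 2.61 in SAL. Tcf7l2, a Wnt pathway factor abundant in the thalamus, was at 11.5, 12.1, 35.7 and 59.8 FPKM in IUO and 63.8, 37.0, 12.3 and 5.20 in SAL. Its high libraries were the 4 with high thalamus genes, and the groups had nearly equal means. Cdh1, the epithelial cadherin, was at 0.02 to 0.21 FPKM in IUO and 0.14 to 0.60 in SAL, under the filter. Nptx2, a secreted pentraxin of excitatory synapses, was at 19.1 to 40.7 FPKM in IUO and 12.2 to 36.0 in SAL.

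**Figure D2:**
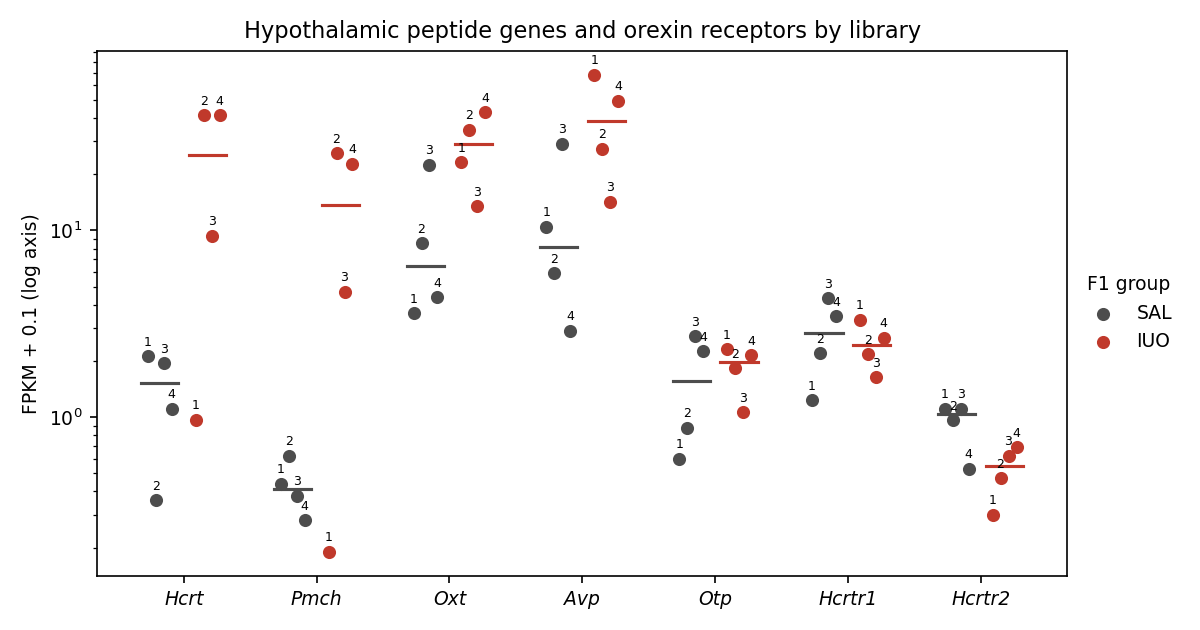
FPKM plus 0.1 on a log axis for 7 genes, with 1 point for each library numbered by replicate and a line at each group's median (SAL grey, IUO red). Hcrt and Pmch were high in IUO libraries 2, 3 and 4 alone, Oxt and Avp were higher in all 4 IUO libraries than in SAL libraries 1, 2 and 4, and the points of Otp and Hcrtr1 intermingle.

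The other F1 and F2 groups show how far these levels moved in the series. Median Hcrt was 0.96 FPKM in F1 PNO, 1.13 in F2 SAL, 8.88 in F2 IUO and 2.29 in F2 PNO, with 16.1 as the highest F2 IUO value. Median Oxt was 2.175 FPKM in F1 PNO, and F2 SAL libraries spanned 0.55 to 56.9. The log2 fold changes of F2 IUO against F2 SAL were 0.96 for Oxt and -1.16 for Avp, neither with an unadjusted p under 0.05 by limma. Avp thus had the opposite direction in F2, with a median of 10.27 FPKM in F2 IUO and 52.55 in F2 SAL. Avp spanned 3.43 to 199.2 FPKM in F2 SAL, which covers every F1 IUO value. For Oxt and Avp, the spread among F2 saline pups was thus wider than the whole F1 IUO range.

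The defining NAc genes Drd1, Drd2, Pdyn and Penk were abundant in all 8 libraries and overlapped between the groups. Direct-pathway genes gave 0 of 10 tested members with an unadjusted p under 0.05 and a median log2 fold change of 0.02. Drd1 was at 19.9, 21.7, 16.9 and 14.4 FPKM in IUO and 13.8, 27.2, 23.6 and 18.2 in SAL, with a log2 fold change of -0.15. Pdyn, the precursor of dynorphin, was at 38.3 to 60.1 FPKM in IUO and 20.4 to 61.0 in SAL, with a 95% interval of -0.53 to 0.87. Tac1, the precursor of substance P, had a log2 fold change of -0.07.

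Indirect-pathway genes gave 1 of 9 members at an unadjusted p under 0.05, the opioid receptor Oprd1, described with the opioid genes. Drd2 was at 48.7, 42.7, 35.5 and 25.8 FPKM in IUO and 19.2, 38.3, 69.2 and 40.0 in SAL, with a log2 fold change of -0.02 (95% interval -0.80 to 0.76). Penk, the precursor of enkephalins, was at 229.8 to 326.0 FPKM in IUO and 116.4 to 321.8 in SAL. SAL library 1 was the lowest and SAL library 3 the highest for Drd2 and Adora2a, an adenosine receptor of the indirect pathway. Genes shared by both pathways gave 0 of 29 members and interneuron genes 0 of 23. Bcl11b, a transcription factor of projection neurons, was at 0.84 to 2.38 FPKM in all IUO libraries and at 1.07, 24.1, 1.61 and 26.0 in SAL, a split within SAL. The direction of Drd1, Drd2, Tac1, Pdyn, Penk and Adora2a turned under a covariate or without a SAL library. Their intervals include a change of 1.5-fold, so with 4 pups a group a difference of that size was not excluded for these genes.

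Among opioid genes, 1 of 7 tested passed the unadjusted threshold. Oprd1, the delta opioid receptor, was at 2.34, 1.49, 1.38 and 1.44 FPKM in IUO and at 0.56, 0.79, 0.87 and 1.42 in SAL. The groups overlapped at SAL library 4, and the log2 fold change was 0.84 (95% interval 0.07 to 1.60; exact permutation p = 0.0571). Oprk1, the kappa receptor, had a log2 fold change of -0.01 and Oprl1, the nociceptin receptor, -0.08. Oprm1, the mu receptor on which oxy mainly acts, was below the filter at 0.23 to 0.39 FPKM in IUO and 0.08 to 0.46 in SAL. Pnoc, the nociceptin precursor, had a log2 fold change of 0.05.

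In the dopamine list, 1 of 10 tested genes had an unadjusted p under 0.05. It was Slc18a2, the vesicular monoamine transporter, at 5.57, 4.11, 4.39 and 4.61 FPKM in IUO and 4.08, 3.31, 3.87 and 2.59 in SAL, with a log2 fold change of 0.43. The groups did not overlap, though IUO library 2 and SAL library 1 were 4.11 and 4.08. Ppp1r1b, the dopamine- and cAMP-regulated phosphoprotein, had a log2 fold change of 0.10 and Th, the enzyme that makes L-DOPA, -0.16.

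**Figure D3:**
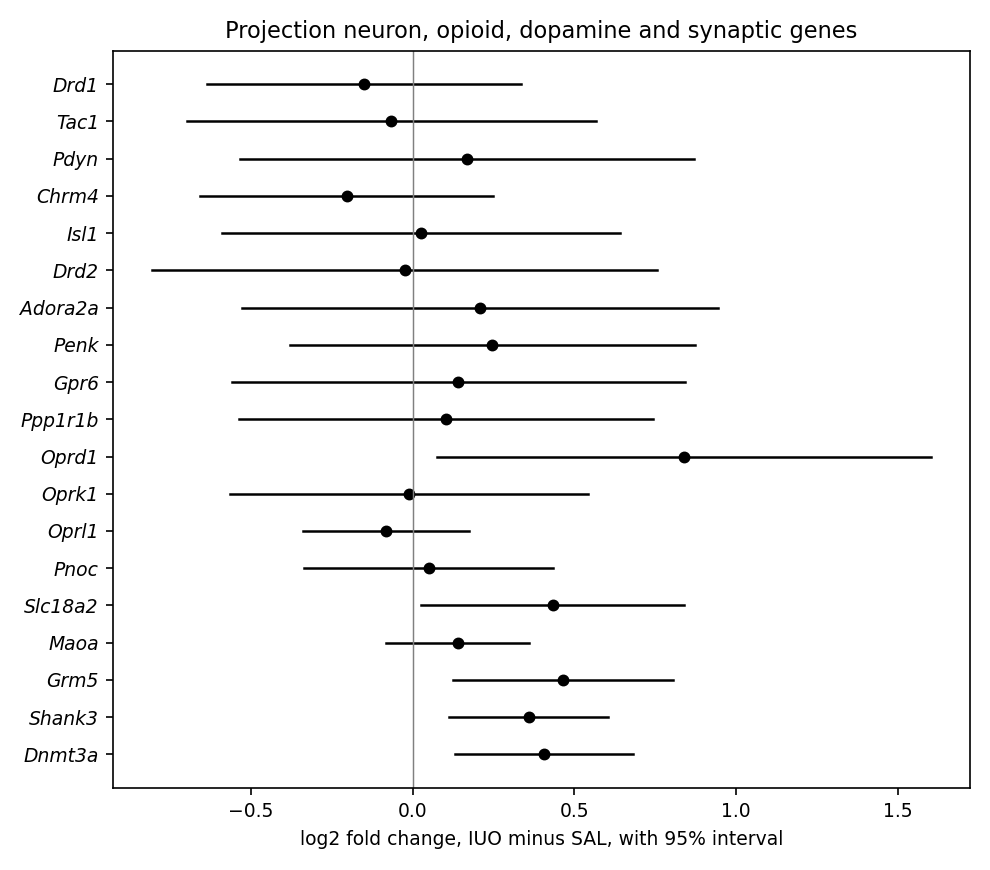
Log2 fold changes of IUO minus SAL (points) with 95% intervals from limma (lines) for 19 genes of projection neurons, opioid and dopamine signalling, synapses and DNA methylation. Apart from Oprd1, which is also on the indirect-pathway list, the intervals of the projection neuron genes all include 0. Those of Oprd1, Slc18a2, Grm5, Shank3 and Dnmt3a lie above 0 before adjustment.

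Of 32 tested scaffold and adhesion genes, 24 were higher and 3 had an unadjusted p under 0.05, none lower, with a median log2 fold change of 0.13. Shank3, which organizes the postsynaptic density, was at 60.5, 51.0, 53.3 and 64.0 FPKM in IUO and 42.9, 44.4, 41.6 and 49.0 in SAL. Its log2 fold change was 0.36 (95% interval 0.11 to 0.61; adjusted p = 0.999). Dlg2 and Dlg3, relatives of PSD-95, had log2 fold changes of 0.35 and 0.49. With the cortical neuron level as a covariate the median of the list was 0.04, and without SAL library 3 it was 0.075. With upper-quartile rescaling 17 of 32 were higher and the median was 0.005, against a median of -0.10 for all genes.

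Among receptors of transmitters, 2 of 7 metabotropic glutamate receptor genes had an unadjusted p under 0.05. Grm5, the mGluR5 receptor, was at 17.8, 17.0, 17.5 and 15.2 FPKM in IUO and 9.40, 11.6, 13.1 and 15.3 in SAL, with a log2 fold change of 0.47. Grm3 was higher by 0.30 on the log2 scale, while 3 of the 7 genes were higher and their median was -0.09. Ionotropic glutamate receptors gave 0 of 26 members, with 18 higher and a median of 0.098. Acetylcholine receptors gave 0 of 9, with 7 higher and a median of 0.106, and GABA receptors 0 of 15, among which Gabrb2 had a log2 fold change of 0.33. Of 48 vesicle and release genes, 1 passed, Syngr3, a synaptic vesicle protein, which was lower at 71.3 to 89.2 FPKM in IUO and 94.3 to 114.4 in SAL. Of 61 genes in the ion channel list, 39 were higher. At an unadjusted p under 0.05, 1 was higher, Kcnj10, and 1 lower, Kcnd3. Kcnd3, the Kv4.3 potassium channel, was at 5.42, 1.62, 8.58 and 3.60 FPKM in IUO and 11.3, 9.79, 8.02 and 7.79 in SAL.

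Among genes of cAMP and G protein signalling, 2 of 58 had an unadjusted p under 0.05, both higher. Adcy1, a calcium-activated adenylyl cyclase, was at 20.1, 17.5, 22.7 and 22.9 FPKM in IUO and 15.8, 8.66, 8.39 and 19.8 in SAL, with a log2 fold change of 0.75. Its low values were in SAL libraries 2 and 3, the libraries low in cortical genes. Gnb4, a G protein beta subunit, had a log2 fold change of 0.44. Immediate early genes gave 0 of 30 members, with 23 higher and a median log2 fold change of 0.21. Fos was at 7.32, 12.6, 11.5 and 18.6 FPKM in IUO and 10.2, 6.39, 7.17 and 12.03 in SAL, and Nr4a2 had the largest difference of the 30, 1.13 on the log2 scale. Nr4a2 too was low in SAL libraries 2 and 3, at 2.0 and 2.16 FPKM. Its log2 fold change was 0.40 with the cortical neuron level as a covariate. The list was highest in IUO library 4 and lowest in SAL library 2.

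Regulators of DNA methylation and histone deacetylation gave 2 of 28 members with an unadjusted p under 0.05, both higher. Dnmt3a, a de novo DNA methyltransferase, was at 20.02, 19.9, 23.2 and 24.2 FPKM in IUO and 16.9, 15.5, 14.4 and 19.0 in SAL, with a log2 fold change of 0.41 (95% interval 0.13 to 0.68; adjusted p = 0.999). The groups did not overlap. The median of the list was 0.02.

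Cortical excitatory neuron genes showed the broadest shift of the larger lists. Of 32 tested, 29 were higher in IUO and 4 had an unadjusted p under 0.05, with a median log2 fold change of 0.40. Slc17a7, the vesicular glutamate transporter VGLUT1, was at 157.1, 179.6, 171.5 and 194.4 FPKM in IUO and at 225.6, 61.3, 3.94 and 270.8 in SAL. The IUO values lay inside the SAL range, which was set by libraries 2 and 3 on the low side. Neurod6 followed the same order, at 9.80 to 16.2 FPKM in IUO and 13.8, 3.29, 1.0 and 20.8 in SAL. Nrgn, the calmodulin-binding protein neurogranin, which striatal neurons express too, was at 681.6 to 927.3 FPKM in IUO and 376.9 to 772.7 in SAL. Without SAL library 3 the median of the list was 0.13, with 23 of 32 higher, and with upper-quartile rescaling 26 of 32 were higher. The summed level was 1823 to 2190 FPKM in IUO and 1190 to 2171 in SAL.

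**Figure D4:**
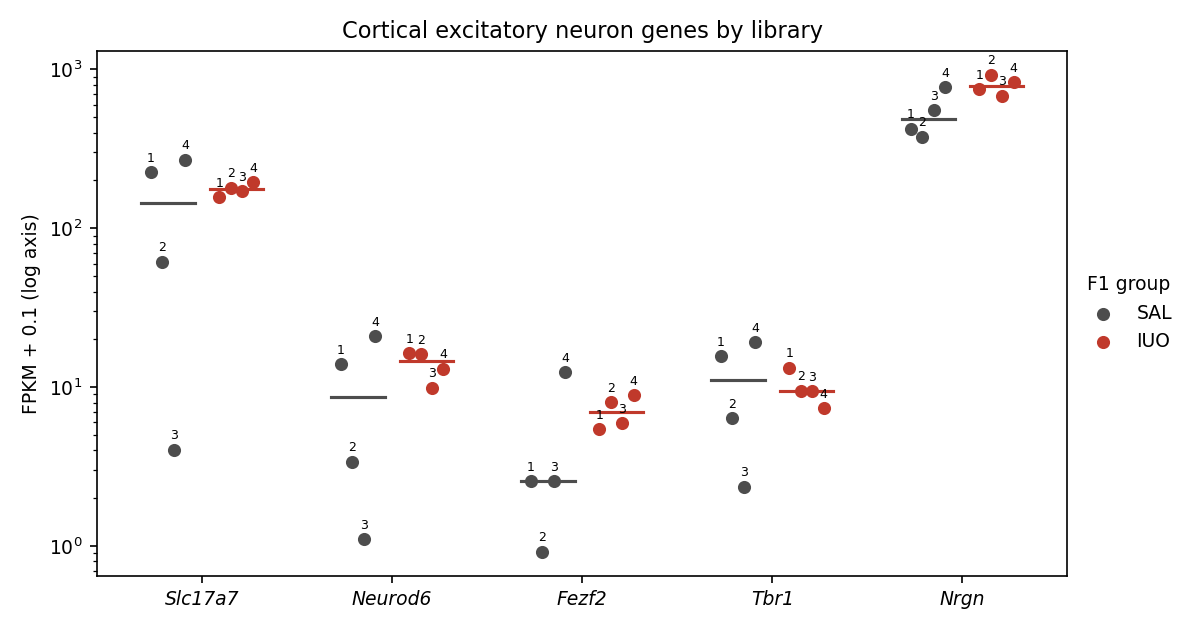
FPKM plus 0.1 on a log axis for 5 genes of cortical excitatory neurons, with points numbered by replicate and a line at each group's median (SAL grey, IUO red). The IUO points cluster, while SAL libraries 2 and 3 lie low for Slc17a7, Neurod6 and Tbr1 and SAL libraries 1 and 4 lie at or above IUO for Slc17a7.

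Glial lists had no members past the unadjusted threshold. The counts were 0 of 29 for myelin and mature oligodendrocytes, 0 of 16 for oligodendrocyte precursors, 0 of 33 for astrocytes and 0 of 31 for microglia. Myelin genes varied between pups within each group, and were lowest in SAL library 4 and IUO library 1. Of 32 endothelial and pericyte genes, 20 were higher, while the 3 with an unadjusted p under 0.05 were all lower. Eng, the TGF-beta co-receptor endoglin, was at 12.9 to 15.9 FPKM in IUO and 17.2 to 19.9 in SAL, with a log2 fold change of -0.38 (95% interval -0.63 to -0.14). Vtn, the adhesion protein vitronectin, was at 15.3 to 17.1 FPKM in IUO and 17.7 to 25.9 in SAL. Neither gene overlapped between the groups, while the third, Ly6e, did.

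Meningeal and fibroblast genes were lower in IUO for 19 of 23 members, with a median log2 fold change of -0.24, and 1, Pcolce, passed the unadjusted threshold. Their level was highest in SAL libraries 1 and 2, and without SAL library 1 the median was -0.03. Blood and erythroid genes were high in IUO libraries 2 and 3 and SAL library 4, and 2 of 4 tested were higher at an unadjusted p under 0.05. Hbb was at 2.35, 25.9, 6.47 and 2.24 FPKM in IUO and 0.76, 0.80, 0.63 and 5.09 in SAL. The summed level of the 4 tested blood genes was 37.2 to 361.8 FPKM in IUO and 31.8 to 97.2 in SAL.

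Of 34 genes of newborn neurons and neurite growth, 28 were higher, with a median log2 fold change of 0.13, and Marcksl1, an actin-regulating protein of neurites, had 0.35. That median was 0.03 without SAL library 2, and with upper-quartile rescaling 18 of 34 were higher. The 13 proteins encoded by mitochondria were lower in IUO by the group mean, with a median of -0.28 and 0 at an unadjusted p under 0.05. Mt-co1 was at 22247, 21020, 17768 and 10664 FPKM in IUO and 19385 to 23264 in SAL, so IUO library 4 set the difference. Without that library the median was 0.01 and 8 of 13 were higher, and with the Y-linked covariate all 13 were higher, with a median of 0.36. Nuclear genes of the respiratory chain gave 1 of 76, Ndufa3, lower by 0.28 on the log2 scale. Cytosolic ribosomal proteins had a median of 0.015 and 42 of 72 higher, with 1 higher and 2 lower at an unadjusted p under 0.05. Cholesterol synthesis gave 2 of 28, both lower, among them Fdft1, squalene synthase, at 28.7 to 31.1 FPKM in IUO and 31.6 to 37.1 in SAL. Cell cycle genes (0 of 30), chaperones (0 of 32), glucocorticoid response genes (0 of 17), neurotrophins (0 of 13), clock genes (0 of 18) and matrix genes (0 of 20) had no member past the threshold. Glycolysis gave 1 of 25, Pfkfb3, which was lower at 1.67, 9.35, 2.11 and 7.41 FPKM in IUO and 8.33 to 10.6 in SAL. Interferon and antigen presentation genes gave 1 of 19, Bst2, the antiviral protein tetherin, higher at 1.81 to 3.53 FPKM in IUO and 1.17 to 1.85 in SAL.

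**Figure D5:**
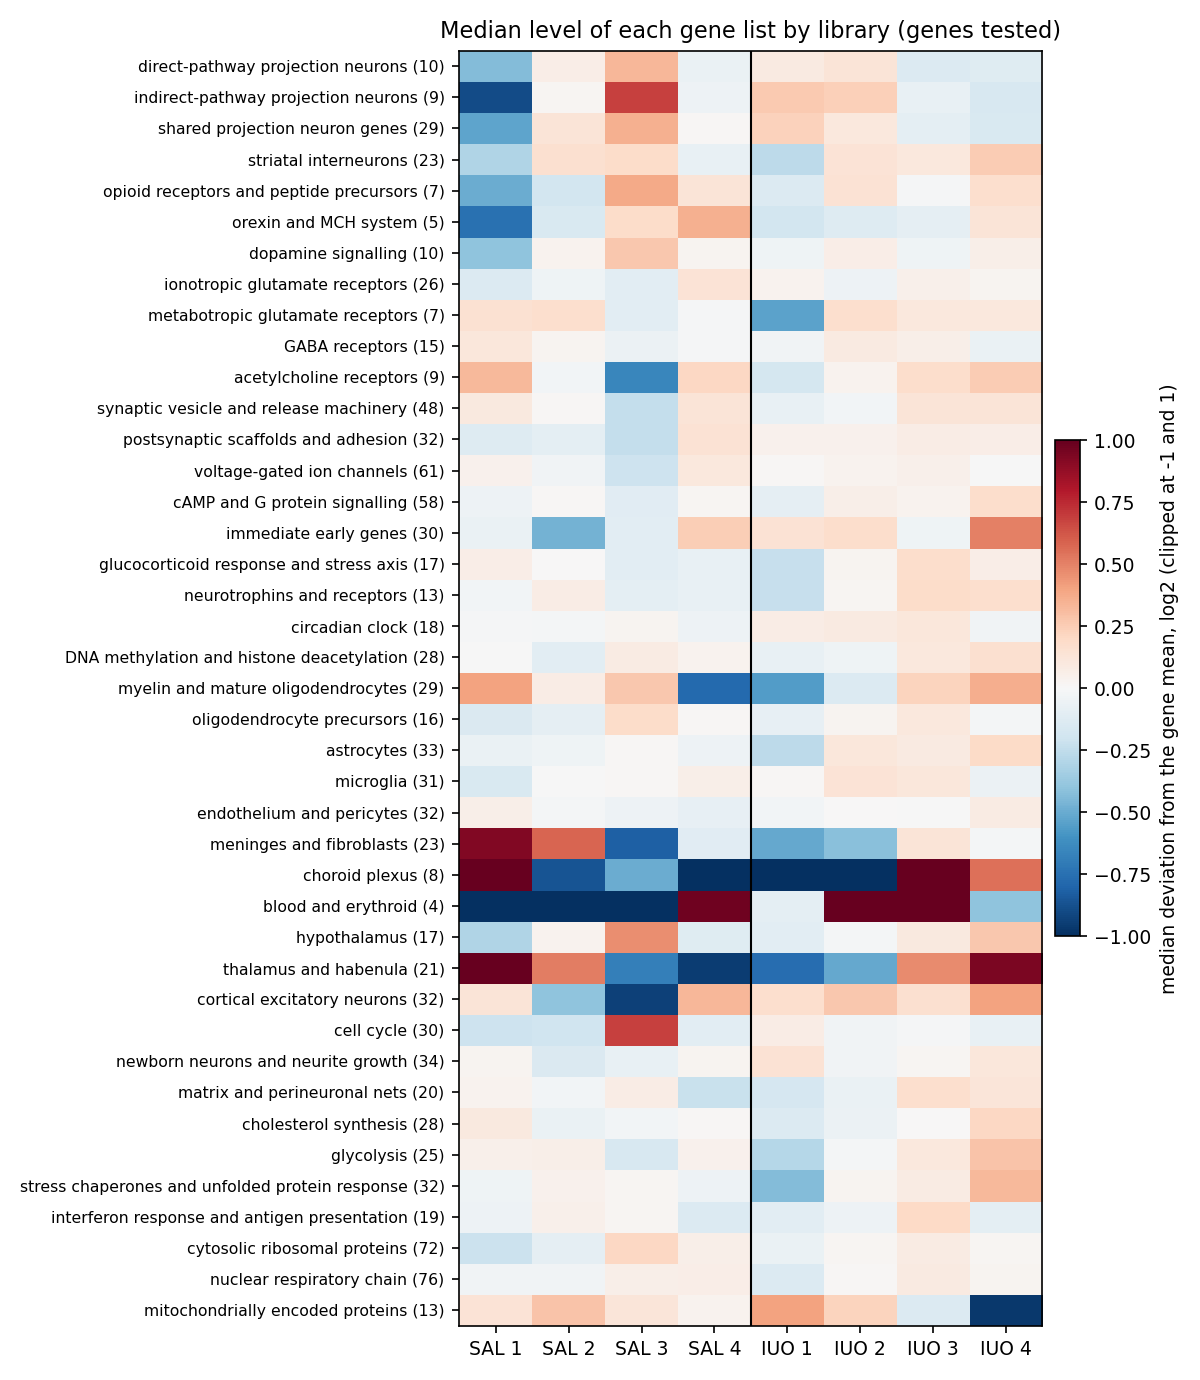
Rows are 41 gene lists with the number of genes tested, columns are the 8 libraries, and colour is the median over the list of log2(FPKM + 0.1) minus the mean of each gene over the 8 libraries, clipped at -1 and 1. Choroid plexus, thalamus, meninges, blood and cortical rows vary most between libraries, and most signalling and metabolic rows stay near 0.

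Several genes with the largest ratios were listed at 0 in some libraries. Senp5, a SUMO protease, was at 2.07 to 2.79 FPKM in all IUO libraries and SAL library 4 (2.56), and at 0 in the other 3 SAL libraries. Surf2 was at 8.60, 10.3, 0 and 0 FPKM in IUO and 10.3 to 11.8 in SAL. Nfs1, a cysteine desulfurase of iron-sulfur cluster assembly, had 2 identifiers past the rule in opposite directions, with log2 fold changes of 3.49 and -0.76, so its direction is uncertain. Hrct1 and Mfap4 were at most 1.36 FPKM in IUO and 1.15 to 2.19 in SAL. Vamp5, a SNARE of the plasma membrane, was at 0.45 to 1.54 FPKM in IUO and 1.26 to 2.95 in SAL.

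Low expression was common among the nominal genes. Their mean FPKM over the 8 libraries had a median of 3.66, against 10.0 for all protein-coding genes tested, and 49 of the 111 did not reach 5 FPKM in any library. For 89.0% of the protein-coding genes tested, the 95% interval of the log2 fold change lay between -1 and 1, and for 47.2% between -0.5 and 0.5. A 2-fold difference thus lay outside the interval of most genes, and a 1.5-fold difference lay inside that of many.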

How the data were processed

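RNA from P14 NAc of Sprague Dawley rats was sequenced by the authors, and FPKM values per gene were deposited for each of 24 samples. Per the labels of the submitters, HISAT2, SAMtools, StringTie and edgeR were used, with no versions given. The genome build is not given in the sources used here. StringTie made the FPKM, which scales for gene length and library total, and read numbers are unknown, so no counting error is given. Exact zeros are described as listed at 0.

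The 8 libraries of F1 IUO and F1 SAL were compared with limma 3.58.1 in R 4.3.3 (lmFit and eBayes with a trend) on log2(FPKM + 0.1), for genes that reached FPKM 1 in no fewer than 4 of these. The pseudocount makes the log2 fold changes of low genes smaller where no library is listed at 0. For genes listed at 0 in some libraries, their size depends on the pseudocount. Surf2 had a log2 fold change of -3.52, and of -1.91 with a pseudocount of 1. The study names a test for counts, which these values are not. Single genes were also tested by exact two-sided permutation. Classes came from RefSeq for GRCr8, matched by symbol (16064 identifiers) or synonym (828), with 7058 unmatched. Where a symbol has several identifiers, list values use the most abundant. Python 3.11.15 with pandas 2.3.3, numpy 2.4.6 and matplotlib 3.10.9 made the tables and figures.

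Genes were named by rule: the 12 higher and 12 lower with the smallest p among nominal, non-overlapping protein-coding genes, up to 3 members of each of 42 lists with the smallest p, the genes whose RT-PCR the study described for F1 and the orexin system, and the 6 highest and 6 lowest ratios among nominal genes. Other genes given as members of a list were added to show defining genes. The members, lists and tests were chosen with earlier results of these data known. P-values measure the spread between these pups, which the series' design text says came from separate litters. Same-numbered libraries shared only a number, with correlations of their deviations from -0.098 to 0.093. The procedure was tested on simulated data. RT-PCR and behaviour were not used here. Some list members are counted but not reported by name here.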

Additional observations from a re-analysis of the deposited data

Results flagged for a closer look

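Of 84 sets of 4 list levels and 70 sets of 4 gene values, 6 held a library that stood apart from the other 3 of its group by Dixon's criterion, which chance meets in about 1 of 20 sets. Metabotropic glutamate receptor genes were low in IUO library 1, with a median deviation of -0.533 on the log2 scale. Blood and erythroid genes were high in SAL library 4, at 0.97. Cell cycle genes were high in SAL library 3, at 0.686, and glycolysis genes were low there, at -0.163. Nrp1 was at 3.12 FPKM in SAL library 2, and Otof at 7.74 in the same library. The 70 sets of gene values covered only part of the genes named here, so other named genes can hold such a library too.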

How the results depend on the processing

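Under every alternative run, the 24 named non-overlapping genes kept their direction. They were chosen because their groups did not overlap, so leaving out a library or changing the pseudocount or filter could not turn them. Their number at an unadjusted p under 0.05 was 24 except with all libraries of the series in one fit (17), the cortical covariate (21), the Y-linked covariate (11) and without the choroid plexus-rich libraries (17). Genes past the nominal rule numbered 213 (127 higher, 86 lower), 80 at 2-fold (45 and 35), 423 with an FPKM of at least 0.1 (181 and 242), 582 with no filter (192 and 390), 75 with the Y-linked covariate (34 and 41) and 247 with the replicate block (145 and 102). With all 24 libraries in one fit 84 were higher. Upper-quartile rescaling over genes above 0 moved the median of all genes from 0.02 to -0.10 and gave 70 higher and 140 lower. Over the genes tested alone, an alternative chosen after seeing the data, it gave 98 and 104. Without the 3 choroid plexus-rich libraries, also chosen after seeing the data, 81 were higher and 156 lower. The share of higher genes thus moved from 59.6% to between 33.0% and 72.2%. Leaving out 1 library at a time gave 156 to 299 genes, 90 to 200 higher and 58 to 150 lower, with the most higher genes without SAL library 4 and the most lower without IUO library 3. It also gave 0 to 2 genes at an adjusted p under 0.05 by limma: AY172581.6 without IUO library 1 (adjusted p = 0.0408), Trappc2b without SAL library 1 (0.00434), and Lrrc24 (0.0354) and Senp5 (0.0461) without SAL library 4. These were named after their values were seen. With no library left out, the adjusted p was 0.656 for AY172581.6 and 0.999 for the others by limma. For Trappc2b, Lrrc24 and Senp5, the SAL library left out was the library within or above the IUO range. Trappc2b was at 5.69 FPKM in SAL library 1, 0 in the other SAL libraries and 3.46 to 5.03 in IUO. Lrrc24 was at 15.7 FPKM in SAL library 4, 4.21 to 4.73 in the other SAL libraries and 12.1 to 17.4 in IUO. Without SAL library 4, Senp5 had a log2 fold change of 4.59.

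Of 86 named genes followed, 19 turned direction under some alternative. The naming rule covers more genes than these 86, and some of the rest changed sign too. Among them were Cck (-0.125 to 1.59), Chrm3 (-0.087 to 0.41) and Chrm4 (-0.39 to 0.019). The Y-linked covariate largely follows the groups, so a change of sign under it is uncertain. With the Y-linked covariate, log2 fold changes of the opposite sign were -0.28 for Nptx2, -0.91 for Tcf7l2, 0.37 for Surf2, 0.14 for Drd1, -0.11 for Ttr, 0.41 for Tac1, 0.34 for Drd2, -0.070 for Pnoc and 0.18 for Mt-co1. With the cortical covariate they were -0.16 for Nptx2, 0.14 for Hcrtr1, 0.061 for Drd1, 0.21 for Tac1, 0.36 for Drd2, 0.054 for Oprk1, -0.28 for Slc17a7, -0.020 for Neurod6 and -0.62 for Tbr1. Slc17a7, Neurod6 and Tbr1 are themselves members of the list that makes this covariate, so their loss of a shift is partly built in. The hypothalamus covariate gave -0.070 for Tcf7l2 and -0.12 for Pnoc. Upper-quartile rescaling gave -0.021 for Ppp1r1b and -0.073 for Pnoc. Without the choroid plexus-rich libraries the values were -0.18 for Tcf7l2, 0.13 for Tac1, -0.11 for Pnoc and 0.036 for Mt-co1. Leaving out 1 library turned 13 of these genes, which then ran from -0.0037 to 0.51 (Nptx2), -0.40 to 0.80 (Tcf7l2), -0.44 to 0.17 (Hcrtr1), -0.17 to 0.36 (Pdyn), -0.061 to 0.43 (Penk), -0.27 to 0.14 (Tac1), -0.35 to 0.27 (Drd2), -0.11 to 0.47 (Adora2a), -0.19 to 0.28 (Ppp1r1b), -0.40 to 0.097 (Th), -0.18 to 0.11 (Oprk1), -0.056 to 0.18 (Pnoc) and -0.36 to 0.64 (Tbr1). Pdyn, Penk, Adora2a and Ppp1r1b turned only without SAL library 1 among these. Of 42 list medians, 17 moved by more than the spread between replicates under some alternative. The mitochondrially encoded list was at 0.36 with the Y-linked covariate and 0.18 without the choroid plexus-rich libraries. Relative to all genes, upper-quartile rescaling left scaffolds at 0.11 and cortical genes at 0.38. The cause of these moves was not tested. With the replicate block 0 genes had an adjusted p under 0.05, as without it, and only library 2 of IUO correlated best with its own number. Read depth is unknown, so its limit on low genes cannot be given.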
